A study of Mus musculus with 3 samples.

Results

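The genes described here are the mouse protein-coding genes with symbols between Zfp600 and Zfp999, with or without a trailing letter. The symbol rule gave 182 of 21775 protein-coding genes of the RefSeq table for GRCm38.p6. No measured value enters the rule itself, but these genes were chosen with earlier results of these data known. Of these genes, 15 lie inside a window of 3 Mb on chromosome 4, where they span chr4:145510759-147849126, and are given apart from the 167 elsewhere. That window was picked earlier from the peaks themselves, so counts inside it describe it and support nothing. At the lower edge of the symbol rule, Zfp595, Zfp597, Zfp598 and Zfp599 just outside it and Zfp600, Zfp605, Zfp606 and Zfp607b just inside it held 0 peaks of either kind. At the upper edge the last members, Zfp994, Zfp995 and Zfp996, held 0 as well. Since 4.75% of all protein-coding genes were touched by either kind, 0 among so few genes is no result about the edges.

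Intestinal cells of 6-week-old C57BL/6 mice of genotype setd2f/f were used for all 3 libraries: 1 ChIP with an antibody to trimethylated lysine 36 of histone H3 (H3K36me3), 1 ChIP with an antibody to SETD2, and 1 input DNA library without antibody. The labels name no Cre driver, so both ChIPs come from the same floxed genotype, and a SETD2-deficient sample was not analysed here. With 1 library per antibody there is no replicate error, and the values below describe 2 lists of called peaks. The H3K36me3 list holds 1806 peaks and the SETD2 list 186. Without read numbers in either list, sequencing depth is unknown. The lists hold positions and not levels, so the labelled tissue was not checked against marker genes.

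Most genes with such symbols encode C2H2 zinc finger proteins, in which a row of finger domains reads a DNA sequence. Many also carry a KRAB domain, which recruits the corepressor TRIM28 and the H3K9 methyltransferase SETDB1 to transposable elements and other repeats. Many of these genes arose by tandem duplication and stand in arrays of similar copies, although 52 of the 182 members have no other member within 1 Mb. SETD2 places H3K36me3 behind elongating RNA polymerase II, and zinc finger genes are known as a class that can carry H3K36me3 together with H3K9me3 over the exons that encode the fingers, near the 3′ end.

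Copies in some arrays resemble each other closely enough that the sequences are shown before the peaks. The lines below give, for 6 members, the 250 bases before the tabulated start site, 5′ to 3′ on the gene's strand, from RefSeq on GRCm38.p6. Capitals mark bases that lie in a run of at least 36 bases found, on either strand, in the 300-base promoter of another protein-coding gene at a position that does not overlap. Zfp985 is shown because an H3K36me3 peak covers its promoter, and Zfp987 because it is the closest relative of that promoter among members and was touched by no peak. Zfp600 and Zfp979 form the most similar pair of the window. Zfp981 stands beside the highest-scoring peak in any member, and Zfp638 is a member on another chromosome whose peak begins 190 bp past its 300-base promoter.
Zfp985 (chr4:147553027-147553276, + strand): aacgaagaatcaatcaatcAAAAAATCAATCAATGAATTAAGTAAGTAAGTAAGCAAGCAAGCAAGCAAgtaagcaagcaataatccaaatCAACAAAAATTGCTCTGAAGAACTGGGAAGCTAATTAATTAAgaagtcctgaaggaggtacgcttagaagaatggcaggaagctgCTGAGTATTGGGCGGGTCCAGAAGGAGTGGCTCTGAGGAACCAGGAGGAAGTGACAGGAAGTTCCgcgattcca
Zfp987 (chr4:146097062-146097311, + strand): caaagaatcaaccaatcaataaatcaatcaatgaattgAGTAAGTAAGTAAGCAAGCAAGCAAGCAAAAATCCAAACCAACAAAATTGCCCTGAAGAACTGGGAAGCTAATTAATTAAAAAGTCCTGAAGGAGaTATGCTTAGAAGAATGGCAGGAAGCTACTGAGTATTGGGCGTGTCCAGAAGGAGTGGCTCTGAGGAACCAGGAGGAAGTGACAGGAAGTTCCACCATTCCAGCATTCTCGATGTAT
Zfp600 (chr4:146156577-146156826, + strand): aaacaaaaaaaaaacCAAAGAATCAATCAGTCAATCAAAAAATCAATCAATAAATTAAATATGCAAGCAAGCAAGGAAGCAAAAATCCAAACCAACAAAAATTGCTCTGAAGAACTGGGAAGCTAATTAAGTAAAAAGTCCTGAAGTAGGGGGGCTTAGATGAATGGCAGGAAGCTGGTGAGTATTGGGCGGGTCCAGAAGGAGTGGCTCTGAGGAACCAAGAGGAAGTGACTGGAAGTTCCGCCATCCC
Zfp979 (chr4:147642509-147642758, - strand): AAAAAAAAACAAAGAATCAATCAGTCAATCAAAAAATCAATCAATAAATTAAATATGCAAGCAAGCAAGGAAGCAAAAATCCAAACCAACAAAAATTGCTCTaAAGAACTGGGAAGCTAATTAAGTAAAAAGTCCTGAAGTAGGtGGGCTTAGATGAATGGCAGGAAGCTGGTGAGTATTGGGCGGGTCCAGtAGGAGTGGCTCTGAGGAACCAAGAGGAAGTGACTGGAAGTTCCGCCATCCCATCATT
Zfp981 (chr4:146514670-146514919, + strand): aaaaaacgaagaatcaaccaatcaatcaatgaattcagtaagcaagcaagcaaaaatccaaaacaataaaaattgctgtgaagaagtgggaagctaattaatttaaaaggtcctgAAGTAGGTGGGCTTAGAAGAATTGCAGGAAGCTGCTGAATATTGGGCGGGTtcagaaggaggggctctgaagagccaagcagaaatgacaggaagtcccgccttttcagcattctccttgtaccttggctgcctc
Zfp638 (chr6:83914103-83914352, + strand): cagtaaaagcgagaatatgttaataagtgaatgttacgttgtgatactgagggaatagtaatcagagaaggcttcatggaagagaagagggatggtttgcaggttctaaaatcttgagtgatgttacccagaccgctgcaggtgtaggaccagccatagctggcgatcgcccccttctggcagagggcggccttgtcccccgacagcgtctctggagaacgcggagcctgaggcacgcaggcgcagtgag

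In these lines 247 of 250 bases are shared in Zfp979, 235 in Zfp600, 211 in Zfp987, 157 in Zfp985, 51 in Zfp981 and 0 in Zfp638. A start site is tabulated for 158 of the 182 members, 11 of them inside the window. Of those 11 members, 9 (81.8%) shared a run of 36 bases with the promoter of another gene, against 39 of 147 members outside the window (26.5%) and 11.7% of all 17491 protein-coding genes with a tabulated promoter. The read length of the study is not given in the sources used here, and whether reads were placed at the right copy was not tested.

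H3K36me3 peaks touched 16 of the 182 members by at least 1 bp (8.79%, exact 95% binomial interval 5.11 to 13.9). Among all protein-coding genes 4.51% were touched, and protein-coding genes of the members' lengths would give 7.41 members, so the count was 2.16 times that number. The members inside the window held 5 of the 16 (33.3% of 15), and the members elsewhere 11 (6.59% of 167, interval 3.33 to 11.5). Outside the window the interval includes both the background of 4.51% and the 3.75% that gene length gives, so a difference from other genes was not detectable there at this number. All binomial intervals here cover counting error only and treat genes as independent, which overlapping neighbours are not.

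SETD2 peaks touched 6 members (3.30%, interval 1.22 to 7.04), where 0.294% of all protein-coding genes were touched and length would give 0.417 members. Every one of the 6 lies inside the window, where 6 of 15 members (40%) were touched. Outside it 0 of 167 members held a SETD2 peak, which allows a share of up to 2.18% (upper exact limit), and length would give 0.342. The SETD2 count of the members as a whole therefore rests on the interval that the peaks had picked. Peaks of either kind touched 19 members (10.4%; 4.75% of all protein-coding genes), 8 inside the window and 11 outside. Peaks of both kinds touched 3 members, Zfp978, Zfp991 and Zfp993, among 13 protein-coding genes in all (0.0597%). All 3 lie inside the window, and Zfp991 lies within the span of Zfp978 and was touched by the same pair of peaks. In Zfp993, which spans 479 kb, the SETD2 peak lies 381 kb from the start site and the H3K36me3 peaks 0.957 and 4.77 kb from it.

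**Figure D1:**
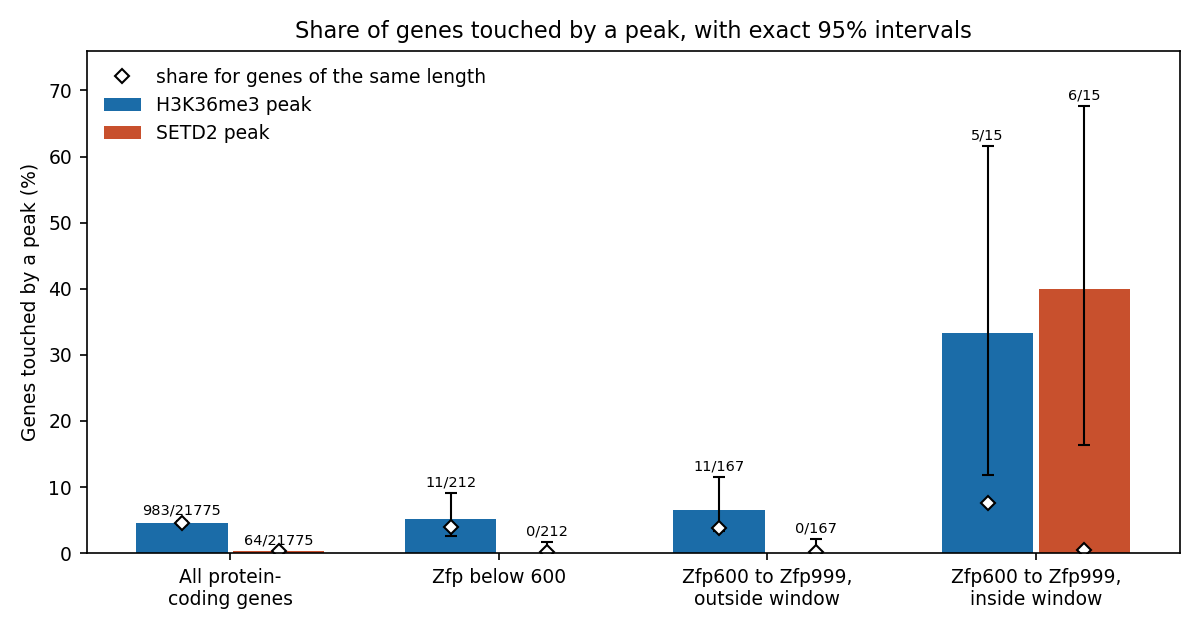
Share of genes touched by a peak (vertical axis, percent) for all protein-coding genes, Zfp genes numbered below 600 and the Zfp600 to Zfp999 genes outside and inside the chromosome 4 window; blue bars are H3K36me3, red bars SETD2, whiskers exact 95% intervals, diamonds the share that genes of the same length give, and labels the touched over all genes. Outside the window the H3K36me3 bar stands at 6.59% with its diamond at 3.75% within the whisker, and the SETD2 bar is at 0.

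Zfp genes with a number below 600 gave similar values to the members outside the window. Of 212 such genes 11 held an H3K36me3 peak (5.19%, interval 2.62 to 9.09; 8.36 for their lengths) and 0 held a SETD2 peak. Median spans were close as well, at 17.6 kb against 16.8 kb for members outside the window and 17.2 kb for all protein-coding genes. The lower and upper quartiles were 12.1 and 29.2 kb for these Zfp genes and 12.2 and 27.9 kb for members outside the window. For all protein-coding genes the quartiles were 5.71 and 44.5 kb, so their spans varied more widely. Members inside the window had longer spans, with a median of 33.7 kb. By span class outside the window, 1 of 23 members up to 10 kb was touched by an H3K36me3 peak, 6 of 112 between 10 and 30 kb (5.36%), 3 of 22 between 30 and 100 kb (13.6%) and 1 of 10 above 100 kb. Over all protein-coding genes the same classes gave 0.878%, 2.91%, 7.53% and 14.3%, so the share rose with length up to 100 kb in members as in other genes, on few members per class.

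Inside the window, the highest-scoring peak of any member lay where Zfp981 and Zfp993 overlap. It spans chr4:146512983-146514629 (1647 bp), and its score of 60.74 is rank 8 of 1806 in the H3K36me3 list. The authors' caller gave each peak its score, which serves here only to rank peaks within a list. This peak begins 85 bp past the 300-base promoter of Zfp993 and ends 41 bp before that of Zfp981, so it lies between the tabulated start sites of these genes, which are read in the same direction. A weaker H3K36me3 peak of the same genes (chr4:146517169-146518066, score 32.90) lies 2.70 kb downstream of the Zfp981 start site. The RefSeq span of Zfp993 is 479 kb long and contains other annotated genes, so a peak within it need not belong to that gene.

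Zfp978 and Zfp991 were touched by the only overlapping pair of H3K36me3 and SETD2 peaks at any member. The H3K36me3 peak (chr4:147141773-147142991, score 36.99) and the SETD2 peak (chr4:147141153-147142214, score 31.36) share 442 bp. Zfp978 spans 267 kb and Zfp991 48.5 kb inside it, and the table gives no strand for either. Zfp978 was also touched by an H3K36me3 peak at chr4:147286046-147287054 (score 32.49), which touched no other protein-coding gene. The midpoint of that peak lies 105 kb from the nearer end of the span, so the peak need not belong to Zfp978. Zfp988, whose span lies within that of Zfp978, was touched by neither kind, and its nearest H3K36me3 peak is 18.6 kb away.

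Zfp985 held an H3K36me3 peak across its start site. The peak (chr4:147552847-147553925, 1079 bp, score 32.30) covers the whole printed promoter, and its midpoint lies 0.109 kb past the start of transcription. The closest relatives of this promoter, Zfp987 with 85.1% identical bases and Zfp982 with 82.6%, held no H3K36me3 peak. Zfp987 lies 386 kb from the nearest one.

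SETD2 peaks at the 4 members with a tabulated start site lay more than 5 kb from it. The peak with the highest score among members touched Zfp984 at its 3′ end (chr4:147753619-147756089, 2471 bp, score 38.12), 98.5% along the span. In Zfp982 the peak lay at chr4:147476014-147476849 (score 36.80, 45.7% along the span). Zfp993 held one at chr4:146892974-146894528 (score 36.27, 79.6% along). Zfp979, also known as Ssm1b, a KRAB zinc finger gene known as a strain-specific modifier of transgene methylation, held one at chr4:147623713-147624691 (score 33.35, 59.9% along). The SETD2 scores of members ran from 31.36 to 38.12, near the median of 35.52 of their list, whose highest score is 1717. None of them reached 40, so the count of 6 falls to 0 at that score.

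Members of the window without a peak were Zfp990, Zfp980, Zfp987, Zfp600, Zfp992, Zfp988 and Zfp933. Their spans ran from 20.4 to 41.9 kb. Zfp990 came closest to being touched, with a SETD2 peak 3.50 kb away. Zfp600, whose promoter is 94.8% identical to that of Zfp979, lies 314 kb from the nearest H3K36me3 peak and 321 kb from the nearest SETD2 peak.

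**Figure D2:**
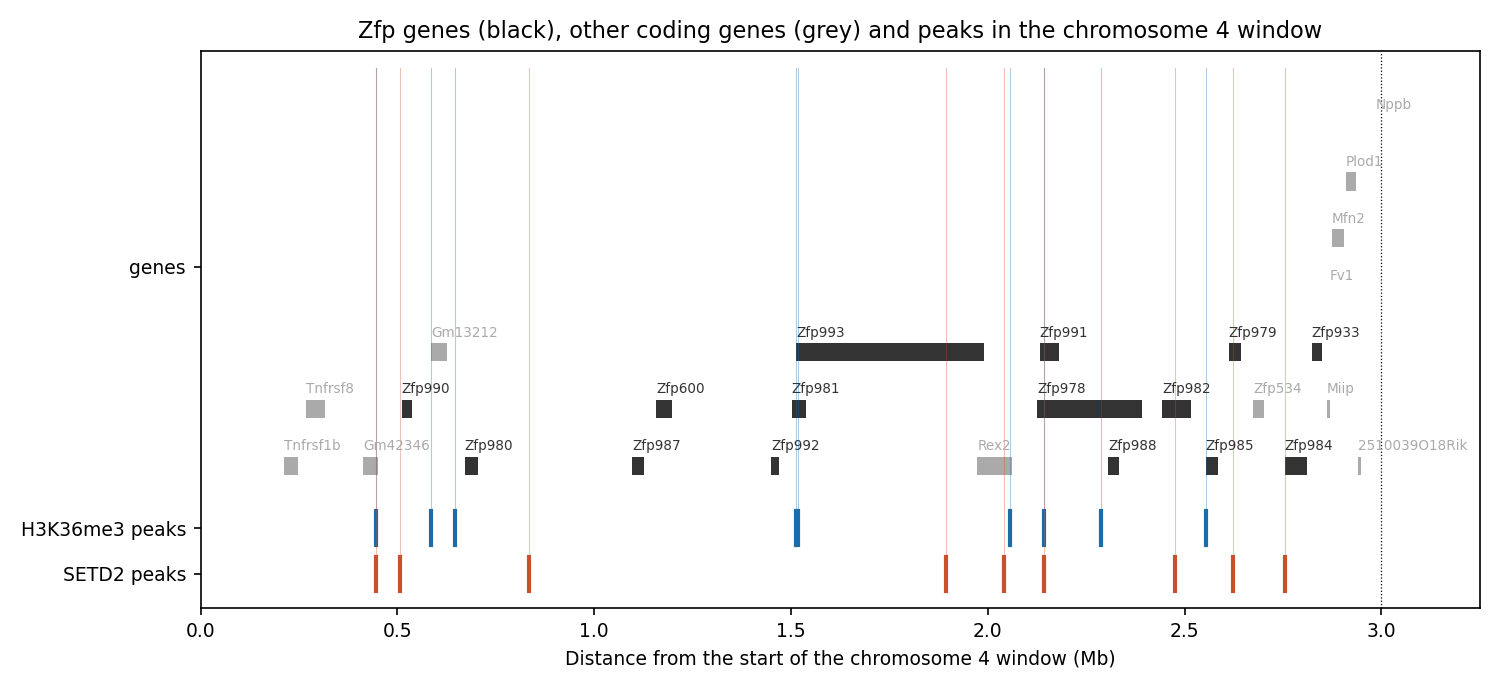
Map of the chromosome 4 window: the horizontal axis is the position along the window in Mb, black bars are the 15 Zfp600 to Zfp999 genes, grey bars other protein-coding genes, and blue and red marks are the 9 H3K36me3 and 9 SETD2 peaks, with thin lines carried up to the genes and rows of genes used only to separate names. The long bars are Zfp993 (479 kb) and Zfp978 (267 kb), and the blue and red marks coincide at Gm42346 and at Zfp978 with Zfp991.

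The window is dense in both kinds of peak, also outside the members. It holds 9 H3K36me3 peaks, of which 5 touch a member, 3 touch other protein-coding genes alone and 1 touches no protein-coding gene. Of its 9 SETD2 peaks, 5 touch a member, 2 touch others alone and 2 none. The other genes are Gm42346, where a peak of each list begins at the same base (145446196) and 1292 bp are shared, Gm13212 with an H3K36me3 peak and Rex2 with one of each kind. Of the 12 other protein-coding genes of the window, 3 were thus touched by an H3K36me3 peak and 2 by a SETD2 peak. Peaks there are therefore not limited to genes that the symbol rule takes. Promoters of Zfp981 and Zfp984 share a run of 36 bases with that of Gm13212. Those of Zfp600 and Zfp979, among others, share one with that of Rex2. Whether Gm42346, Gm13212 and Rex2 encode zinc finger proteins was not examined. The window also contains 50 pseudogenes. The input library served as control for both lists, and its level in the window was not analysed here.

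Other arrays of members did not hold SETD2 peaks. Members on a chromosome were joined when the next one started within 1 Mb, which gave 11 arrays of 5 or more members with 98 members in all. The chromosome 4 array, from Zfp990 to Zfp933 over 2.34 Mb, held 8 H3K36me3 and 7 SETD2 peaks, or 3.42 and 2.99 per Mb. The remaining 10 arrays, with 83 members over 11.9 Mb, held 14 H3K36me3 peaks (1.17 per Mb, from 0 to 3.72 in single arrays) and 0 SETD2 peaks. Over the extent of all annotated genes the lists held 0.679 and 0.0699 peaks per Mb. At so low a SETD2 rate, 0 peaks over 11.9 Mb is near the background and no result about the 10 arrays. The chromosome 4 array lies in the window that was picked from the peaks. Touched members outside the window and inside such an array were Zfp777, Zfp787, Zfp936, Zfp747 and Zfp820, 1 in each of 5 arrays. They are 5 of the 83 members in the 10 arrays, where 4.75% of all protein-coding genes were touched by either kind. Of the 11 arrays, 5 with 41 members had no touched member, among them the array of 10 members on chromosome 2 from Zfp831 to Zfp931. Beside that share, neither count is a result about the arrays at these numbers.

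Copies in the chromosome 2 array were similar too, and none of its 10 members was touched. Since 4.75% of all protein-coding genes were touched by either kind, 0 of 10 is no result about these members. Whether similarity of copies goes with peaks was not tested. Promoters there are at least as alike as in the chromosome 4 window: the median pairwise identity was 78.2% over 36 pairs of 9 genes, and 8 of the 9 shared a run of 36 bases with another gene. Zfp966 and Zfp967 have promoters that are identical over all 300 bases. The nearest H3K36me3 peak to a member of that array is 1.68 kb from Zfp971. In the chromosome 4 window the median was 72.0% over 55 pairs of 11 genes, and outside it 50.1% over 10731 pairs. Within the window, 5 of 6 touched members and 4 of 5 untouched members with a tabulated promoter shared such a run.

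**Figure D3:**
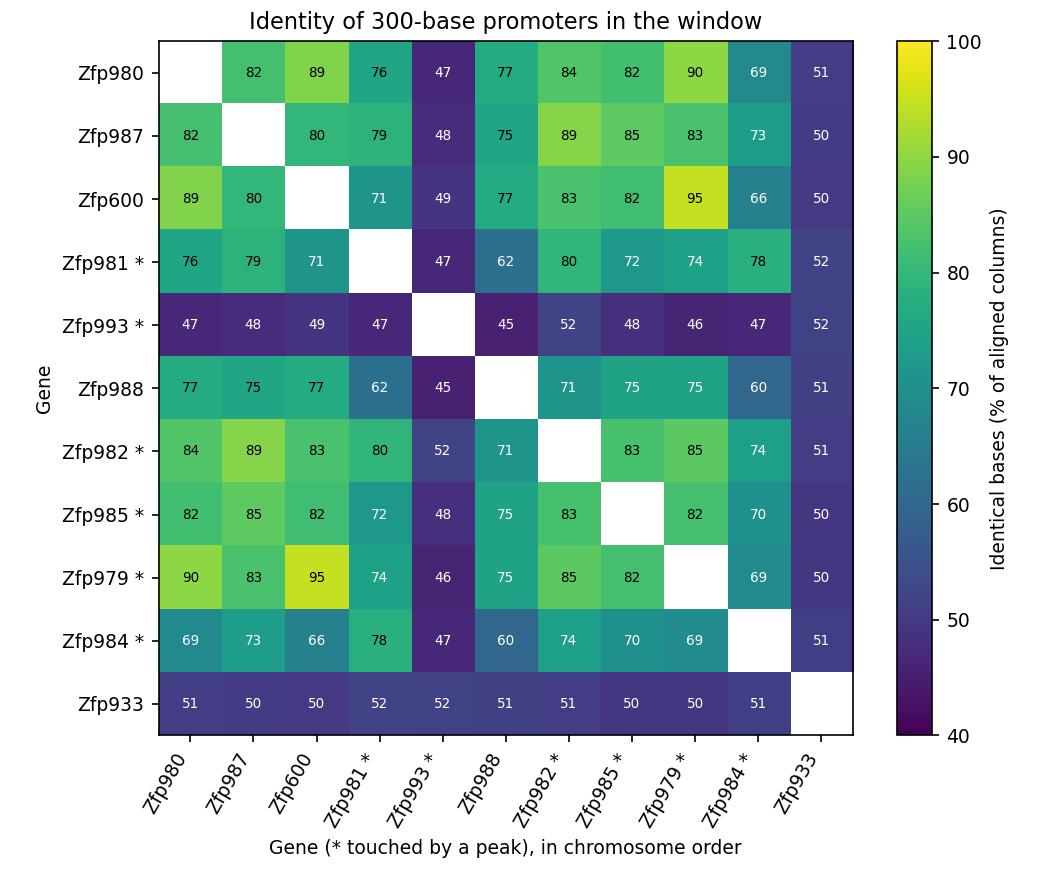
Identical bases between the 300-base promoters of 11 members of the chromosome 4 window (percent of aligned columns, colour scale from 40 to 100, best pair of promoters where a gene has several); genes stand in chromosome order on both axes and a star marks those touched by a peak of either kind. Zfp600 and Zfp979 reach 94.8%, while Zfp993 and Zfp933 stay near 50% with all others, and starred and unstarred genes both occur among the similar ones.

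Window promoters also share a short element. The letters ATTGGGCGG, searched on both strands in the 300-base promoters, are an inverted CCAAT box that overlaps a GC box, GGGCGG, by 2 bases. They occurred in 8 of 14 promoters of members inside the window, in 2 of 174 outside it (Zfp947 and Zfp994, both on chromosome 17) and in 0.353% of the 21262 promoters of protein-coding genes. The 8 belong to Zfp980, Zfp600, Zfp981, Zfp988, Zfp982, Zfp985, Zfp979 and Zfp984, of which Zfp980, Zfp600 and Zfp988 held no peak. The motif was chosen after the sequences were seen. Taken singly and with overlaps kept, CCAAT occurred in 57.4% of all member promoters and GGGCGG in 42.0%, against 38.2% and 46.2% of all promoters, and TATAAA in 4.79% against 12.6%. Promoters in the window had a median GC content of 43.3% and a median of 4.5 CpG sites, and those of members elsewhere 54.0% and 12.

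Outside the window the 11 touched members were scattered over chromosomes 5, 6, 7, 8, 13 and 17, with 1 H3K36me3 peak each. The highest-scoring lay in Zfp638, which encodes a nucleic acid-binding protein also called NP220 (chr6:83914592-83915099, score 44.69, 5.98% of the list above it). It begins just past the promoter printed above, with its midpoint 0.492 kb downstream of the tabulated start, in the interior of a span of 120 kb. Next came Zfp808 on chromosome 13 (chr13:62165833-62166515, score 36.65) and Zfp709 on chromosome 8 (chr8:71890348-71890815, score 36.38). Both peaks lay toward the 3′ end, at 82.4% and 81.1% of the span.

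Chromosome 7 carries 39 members, the most of any chromosome, and 5 of the 11 touched ones. Over all chromosomes 4.51% of protein-coding genes held an H3K36me3 peak, and the share for chromosome 7 alone is not given here. Zfp747, the shortest touched member with a span of 3.51 kb, held a peak at chr7:127374768-127375475 (score 35.03), 0.929 kb past its start. Zfp787 (chr7:6159115-6159613, score 33.92) was touched by 266 bp of a peak of 499 bp that crosses the 5′ end of its span, with the midpoint at -3.40 kb from the tabulated start site (negative values lie upstream). Zfp865 held a peak at chr7:5024860-5025290 (score 33.69) inside a span of 12.9 kb without a tabulated strand. In Zfp790, which spans 20.6 kb, the peak lay at chr7:29814534-29815039 (score 33.40), at -1.29 kb from the start site. Zfp936 (chr7:43137349-43138198, score 30.95) held the lowest-scoring peak of any member, at -39.8 kb from its tabulated start.

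The remaining 3 were Zfp777 (chr6:48036131-48036557, score 34.02), Zfp655 (chr5:145234252-145234839, score 32.85) and Zfp820 (chr17:21841244-21842094, score 31.43). Zfp655 and Zfp820 were touched 2.80 and 4.09 kb downstream of the start site and Zfp777 11.4 kb downstream. Chromosome 17 has 24 members and chromosome 13 has 15, with 1 touched member each, and chromosome 2 has 15 with 0. With 4.75% of all protein-coding genes touched by either kind, these counts are no result about the members. Promoters of the touched members outside the window, 10 in number, had a median GC content of 55.0%, close to the 54.0% of the 164 promoters of untouched ones. A run of 36 bases shared with another gene's promoter occurred in 3 of the 10 (Zfp936, Zfp747 and Zfp808), against 36 of 137 untouched genes (26.3%), so touched and untouched members outside the window were alike in this count.

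H3K36me3 peaks at members were wider inside the window than elsewhere, with no overlap in width. Of the 5 H3K36me3 peaks that touch a member inside the window, 4 were wider than 1 kb, against 2.10% of the whole H3K36me3 list (38 of 1806). None of the 11 at members elsewhere was, with widths from 427 to 851 bp and a median of 508 bp, below the 602 bp of the list. Over all 9 H3K36me3 peaks of the window, members or not, 5 passed 1 kb, and the narrowest were 464 bp in Gm13212 and 362 bp in no protein-coding gene. SETD2 peaks at members were 836 to 2471 bp wide, and 3 of 5 passed 1 kb, as did 18.8% of that list. Median scores hardly differed: 32.90 for H3K36me3 peaks at members inside the window, 33.92 outside it and 33.61 for the whole list.

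**Figure D4:**
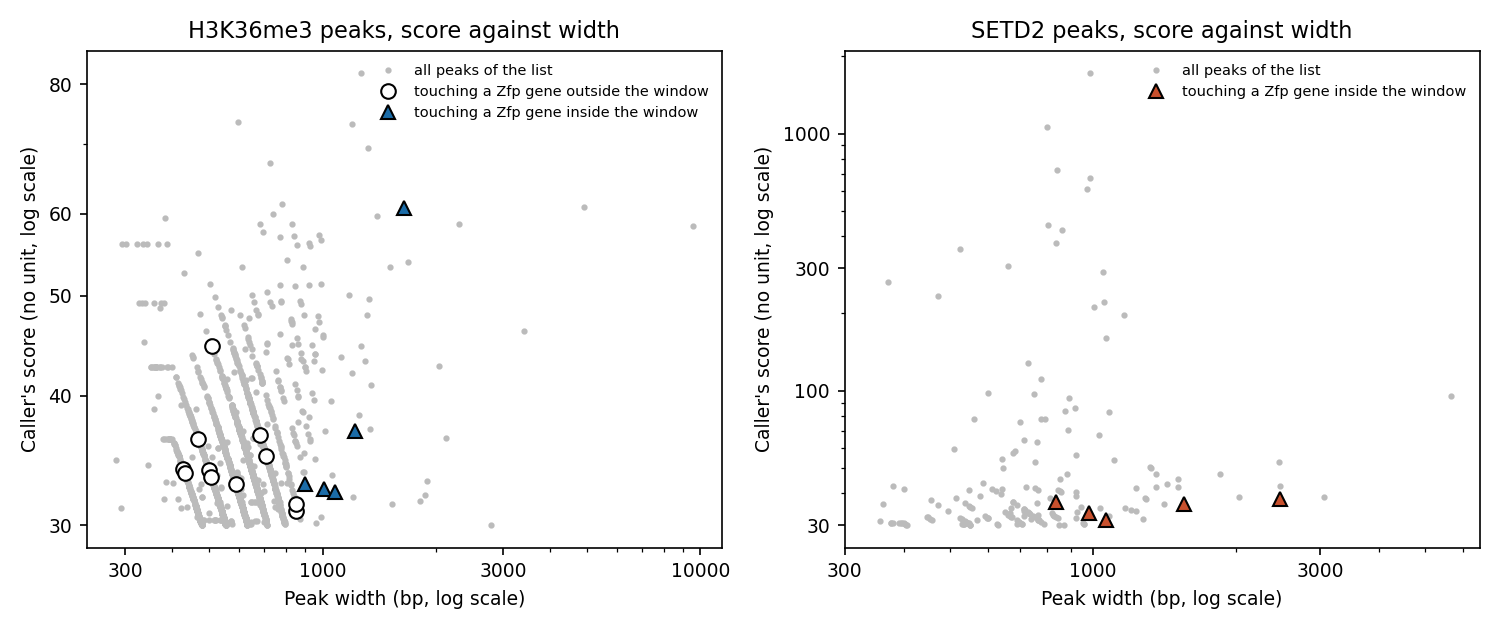
Caller's score (vertical axis, no unit, log scale) against peak width (horizontal axis, bp, log scale) for every peak of the H3K36me3 list (left) and the SETD2 list (right) in grey; open circles touch a Zfp gene outside the window and triangles one inside it. The 5 blue triangles lie at 898 bp or wider, right of the 11 circles, and the 5 red triangles sit low on the score axis.

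H3K36me3 peaks in members lay toward the 5′ end of the annotated span. With 15 pairs of a peak midpoint and a member of known strand, 13 lay in the first 50% of the span and 2 in the rest, with a median position of 26.4%. Over 827 such pairs in all protein-coding genes the median was 48.1%, and 423 (51.1%) lay in the first 50%. Within 5 kb of a tabulated start site, upstream or downstream, lay 11 of the 15 pairs, against 18.7% of the 827. The higher-scoring peak in Zfp981 and the peaks in Zfp787, Zfp790 and Zfp936 had midpoints upstream of the tabulated start site. In that order they lay at -1.11, -3.40, -1.29 and -39.8 kb, although inside the span. Outside the window the numbers were 8 of 10 in the first 50% and 6 of 10 within 5 kb. Among genes of 10 to 100 kb, 7 of 11 pairs of members lay within 5 kb of a start site, against 86 of 474 (18.1%). Spans still differ within that class, and 5 kb is a larger part of a shorter span, so gene length was not removed. Both peaks shared by Zfp981 and Zfp993 enter these counts once per gene, and both measures were chosen after positions of these peaks had been seen. The finger exons of such genes, near the 3′ end, were not assigned here because the gene table has no exons, and among members of known strand the H3K36me3 peaks past 50% of the span were those of Zfp709 and Zfp808. Zfp978, Zfp991 and Zfp865 have no tabulated strand and were not placed.

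SETD2 peaks gave 4 pairs in members of known strand. Past 50% of the span lay 3 of the 4, as did 30 of 55 pairs in all protein-coding genes. Within 5 kb of a start site lay 0 of the 4, against 7 of the 55 (12.7%), so neither count is a result about the members at this number. A difference from the H3K36me3 peaks was not tested.

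**Figure D5:**
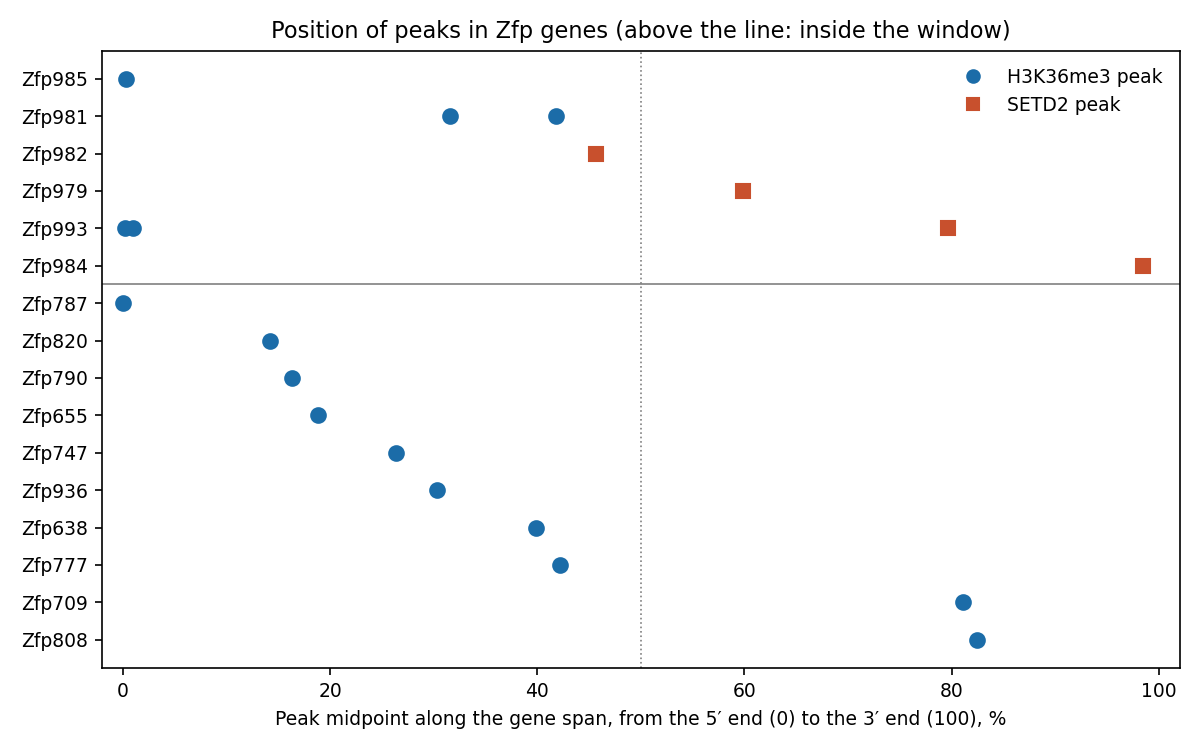
Position of each peak midpoint along the span of the member it touches (horizontal axis, percent from the 5′ end to the 3′ end), for members whose strand is tabulated; blue circles are H3K36me3 peaks, red squares SETD2 peaks, the dotted line marks 50%, and genes above the solid line lie inside the chromosome 4 window. Blue circles lie left of the dotted line in all genes but Zfp709 and Zfp808, and red squares lie right of it in Zfp979, Zfp993 and Zfp984.

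Members without any peak numbered 163. Outside the window the median distance from a member to the nearest H3K36me3 peak was 278 kb, touched members included, against 354 kb for all protein-coding genes, and to the nearest SETD2 peak 8815 kb against 5417 kb. Within 10 kb of an H3K36me3 peak, but not touched, lay 4 of the 167 members outside the window and 420 of the 21775 protein-coding genes. Besides Zfp971 these were Zfp764 at 4.29 kb, Zfp687 at 8.83 kb and Zfp784 at 9.16 kb. The 5 longest members without a peak were Zfp804b (575 kb), Zfp804a (210 kb), Zfp800 (187 kb), Zfp704 (183 kb) and Zfp618 (174 kb). Zfp809, known for binding a retroviral primer binding site and silencing proviruses, spans 28.5 kb and lies 226 kb from the nearest H3K36me3 peak. Lack of a called peak does not show that the mark was absent from a gene.

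The partners through which KRAB zinc finger proteins act held no peak at all. A list of 36 genes covered the TRIM28 corepressor, the HUSH complex, H3K9 and DNA methyltransferases, NuRD subunits and related factors, such as Trim28, Setdb1 and Atrx. It also holds Zfp57 and Zfp809, and the latter is one of the 182 members. None was touched by an H3K36me3 peak, where their lengths would give 1.84, nor by a SETD2 peak, where they would give 0.112. The exact upper limit for 0 of 36 is 9.74%, above the background of 4.51%, so a shortage of peaks in this list was not detectable at its size.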

How the data were processed

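The authors deposited 1 peak list for each antibody. Names in the deposited lists point to MACS as caller, with the input as control. Each deposited peak has a score of unstated scale. The submitters' processing notes name CASAVA 1.8 and hg19. Peaks on chromosome Y reach 90825851, past the end of that human chromosome, and H3K36me3 peaks touched 983 protein-coding genes in GRCm38 as placed, against 742 and 709 after a shift of 1 Mb either way, so coordinates are given as GRCm38, counted from 1. Aligner and caller settings: not given in the sources used here.

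Gene spans came from RefSeq (GRCm38.p6), without patch scaffolds (starts below 3 Mb, chromosome Y excepted), and 21775 of 21896 protein-coding genes remained. Overlap of 1 bp between peak and span made a gene touched. The number that length gives is the share touched in each of 20 bins of span length, summed over the members. Start sites, strands and promoters (250 bases before, 50 after the start) came from a RefSeq table. Promoters were aligned end to end with Biopython 1.88; other steps used pandas 2.3.3, SciPy 1.17.1 and Python 3.11.15. The procedures were tested on simulated data.

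Every touched member is named; of the untouched, those in the window, the 5 longest and Zfp809 are named by rule, and others were chosen after their values were seen. Members and lists were chosen with earlier results of these data known. Alternatives were stricter scores, other overlap rules, overlapping members counted once, another window and other length bins. A planned comparison of finger numbers and protein identity was left out, because no protein sequences were used here.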

Additional observations from a re-analysis of the deposited data

How the results depend on the processing

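Score was the choice that moved the counts. With scores of 40 or more, 3 members held an H3K36me3 peak (0.698% of all protein-coding genes; length would give 1.10) and 0 a SETD2 peak (0.0873%; 0.0845 for length). Peaks of either kind then touched 0.781% of all protein-coding genes, 2 members inside the window (0.191 for length) and 1 outside, where length gives 0.993. The 2 inside, Zfp981 and Zfp993, were touched by the same peak, with a score of 60.74. With scores at or above the median of each list, 3 members held a SETD2 peak (0.133%; 0.168 for length) and 7 outside the window a peak of either kind (2.53%; 3.66 for length). Stricter scores leave fewer peaks in each list, and the SETD2 peaks at members scored 31.36 to 38.12, all below 40. Overlap by midpoint, by at least 50% of the peak, spans widened by 5 kb, overlapping members counted as 1 locus, a window that starts 1 Mb later, and, added after seeing the data, members with spans over 200 kb left out kept each count within 1.5 times. The ratio to the number that length gives ran from 1.95 to 2.16 for H3K36me3 and from 11.2 to 14.4 for SETD2 over 10, 20, 50 or no length bins and without the longest members. These ratios include the 15 members of the window, which was picked from the peaks, so they support nothing about the members as a whole. Outside the window, with 20 bins, the ratio was 1.76 for H3K36me3 and 0 for SETD2. No paired analysis was possible because each antibody has 1 library.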
